A study of Mus musculus with 12 samples.

Results

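A set of 10 genes that let macrophages sense, degrade or release the small molecules given off by dying cells was followed in mouse bone marrow-derived macrophages that had engulfed melanoma corpses. They are the nucleotide receptor genes P2ry2, P2ry6, P2rx4 and P2rx7, the adenosine receptor genes Adora2a and Adora2b, the ectonucleotidase gene Entpd1, the lipid receptor genes S1pr1 and Gpr132, and the channel gene Panx1. They were picked by symbol, after the Ensembl identifiers of the count files had been matched to gene names without their version, and all 10 were found among the 55604 genes counted.

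RNA was sequenced in 3 groups of 4 libraries. The first group held macrophages cultured for 20 h with corpses of B16-F10 cells, a mouse melanoma line, that overexpress STC1 (STC1OE corpses), a secreted glycoprotein. The second held macrophages cultured for 20 h with control B16-F10 corpses, and the third held macrophages alone, with no corpses. All groups shared the C57BL/6 strain, growth from marrow with M-CSF at 20 ng/ml and use on day 7, and the labels give the loading as a ratio of 1 to 5. The vector that drives STC1, whether the line is 1 clone and how the corpses were killed are not given in the sources used here. The design text speaks of independent experiments, but no label says which macrophages came from which mouse, so the p-values measure the spread between these cultures.

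Dying cells attract phagocytes with soluble find-me signals, among them ATP and UTP, which leave through pannexin channels opened by caspases, and the lipids sphingosine 1-phosphate and lysophosphatidylcholine. Nucleotides act on metabotropic receptors, which couple to G proteins, and on ATP-gated ion channels. Cell-surface enzymes trim ATP and ADP to AMP and then to adenosine, which acts on its own receptors and in macrophages is known to dampen inflammatory output.

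The promoters of the genes that carry the main differences are shown first. Windows of 300 bases, from 250 bases before to 50 bases after a RefSeq start on GRCm38.p6, were available for 7 of the 10 genes. Those of P2ry6, Adora2a and S1pr1 are not shown. The 5 windows below belong to Gpr132 and Entpd1, which fell most, to P2ry2, which rose with both kinds of corpse, and to Panx1, which separated the corpse groups. They are written 5′ to 3′ along the gene, and capitals mark motif matches on either strand.
Gpr132, chr12:112860867-112861166, minus strand: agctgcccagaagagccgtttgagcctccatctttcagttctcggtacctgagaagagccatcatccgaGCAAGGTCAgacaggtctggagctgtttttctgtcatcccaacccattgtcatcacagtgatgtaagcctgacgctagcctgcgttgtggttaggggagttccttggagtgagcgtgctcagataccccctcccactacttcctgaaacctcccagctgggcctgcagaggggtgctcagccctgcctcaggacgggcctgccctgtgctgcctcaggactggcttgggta
Entpd1, upstream start, chr19:40612116-40612415, plus strand: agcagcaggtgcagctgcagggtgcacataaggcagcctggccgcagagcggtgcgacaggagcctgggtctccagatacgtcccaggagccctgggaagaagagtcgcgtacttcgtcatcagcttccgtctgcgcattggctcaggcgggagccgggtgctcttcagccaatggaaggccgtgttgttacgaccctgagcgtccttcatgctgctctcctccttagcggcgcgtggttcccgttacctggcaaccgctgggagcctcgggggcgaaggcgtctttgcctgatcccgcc
Entpd1, downstream start, chr19:40659520-40659819, plus strand: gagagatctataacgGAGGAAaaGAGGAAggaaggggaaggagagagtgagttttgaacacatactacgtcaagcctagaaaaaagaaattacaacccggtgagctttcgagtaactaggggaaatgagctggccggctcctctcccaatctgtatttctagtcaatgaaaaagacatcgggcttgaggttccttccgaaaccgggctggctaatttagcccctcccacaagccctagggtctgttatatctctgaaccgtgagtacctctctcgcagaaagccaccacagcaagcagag
P2ry2, chr7:101011949-101012248, minus strand: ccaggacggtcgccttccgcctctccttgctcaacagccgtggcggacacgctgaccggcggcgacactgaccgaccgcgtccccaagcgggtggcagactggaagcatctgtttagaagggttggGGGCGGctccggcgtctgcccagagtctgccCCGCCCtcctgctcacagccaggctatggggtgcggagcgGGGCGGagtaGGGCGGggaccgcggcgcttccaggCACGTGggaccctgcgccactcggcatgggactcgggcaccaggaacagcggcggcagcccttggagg
Panx1, chr9:15045429-15045728, minus strand: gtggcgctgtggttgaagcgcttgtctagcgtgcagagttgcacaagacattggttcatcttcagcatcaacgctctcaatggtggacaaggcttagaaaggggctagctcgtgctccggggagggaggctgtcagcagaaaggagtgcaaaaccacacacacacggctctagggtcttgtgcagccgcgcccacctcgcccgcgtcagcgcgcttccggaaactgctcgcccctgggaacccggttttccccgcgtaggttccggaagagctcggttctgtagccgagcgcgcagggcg

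A set of 8 motifs was searched on both strands. They were the ETS core GAGGAA, the AP-1 site TGANTCA, the cAMP response element TGACGTCA, the TFEB and TFE3 E-box CACGTG, the hypoxia core ACGTG (which lies within CACGTG), the antioxidant core TGACNNNGC, the Sp1 box CCGCCC and the TATA box TATAAA. Of 32851 mouse promoter windows of the same length, 28.3% held GAGGAA, 7.81% TGANTCA, 1.79% TGACGTCA, 7.15% CACGTG, 19.6% ACGTG, 12.4% TGACNNNGC, 35.7% CCGCCC and 13.6% TATAAA. The Gpr132 window held the antioxidant core once, as GCAAGGTCA. The downstream Entpd1 window held GAGGAA at 2 places, and its upstream window held none of the motifs. The P2ry2 window, 1 of 2 overlapping ones that RefSeq starts give for that gene, held 4 Sp1 boxes and a CACGTG, and the Panx1 window held none of the motifs. G and C made up 71.0% of the P2ry2 window, 61.3% of the Panx1 window, 57.7% of the Gpr132 window and 64.0% and 48.7% of the upstream and downstream Entpd1 windows, against a median of 52.7% over all windows. A match is a description of letters only, and binding was not measured.

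Counts assigned to genes ran from 28488441 to 39981074 per library. Levels are given as CPM (counts set against library size, with TMM factors that balance composition between libraries), and a count of 3, the limit that a count of 0 allows, came to 0.0750 to 0.105 CPM by counting error alone. Stc1 itself had 2, 3, 7 and 5 counts with STC1OE corpses, 3, 0, 2 and 0 counts with control corpses and 0, 2, 0 and 3 counts in macrophages alone. Its overexpression could thus not be read from these counts, and the reason was not tested. All 6 macrophage markers were present, and summed to 4714 to 4986 CPM with STC1OE corpses, 4574 to 4684 CPM with control corpses and 4642 to 4686 CPM in macrophages alone. Within that sum Adgre1, Csf1r and Itgam were called lower and Cd68, Mertk and Fcgr1 higher with both kinds of corpse, the log2 differences from macrophages alone running from -0.43 (Itgam) to 0.70 (Cd68) with STC1OE corpses and from -0.46 (Itgam) to 0.55 (Mertk) with control corpses. Markers of melanocytes, the cells the corpses came from, summed to 3.21 to 4.64 CPM with STC1OE corpses, 9.67 to 12.9 CPM with control corpses and 0.205 to 0.594 CPM in macrophages alone. Their part in the results was not tested.

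Differences are log2 fold changes with their standard error (SE) from edgeR's quasi-likelihood test, with p-values adjusted over all 16406 genes tested and called below 0.05. All 10 genes passed the filter on low counts. With STC1OE corpses against macrophages alone, 7 of the 10 were called, 2 higher and 5 lower, where 43.8% of all genes were called, 21.4% higher and 22.4% lower. With control corpses against macrophages alone, 8 of the 10 were called, 2 higher and 6 lower, where 40.1% of all genes were called, 19.7% higher and 20.5% lower. Between STC1OE corpses and control corpses 1 of the 10 was called, Panx1, where 5.44% of all genes were called, 3.33% higher and 2.12% lower. The median log2 difference of the 10 genes was -0.05 with STC1OE corpses against macrophages alone, beside -0.03 for all genes. With control corpses against macrophages alone it was -0.14, beside -0.00, and between the corpse groups 0.04, beside -0.01. The comparisons with macrophages alone share those 4 libraries and are not independent of each other. Against a 1.2-fold change, Gpr132 and Entpd1 alone of the 10 were called, each with STC1OE corpses (where 12.9% of all genes were called) and with control corpses (10.3%) against macrophages alone.

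**Figure D1:**
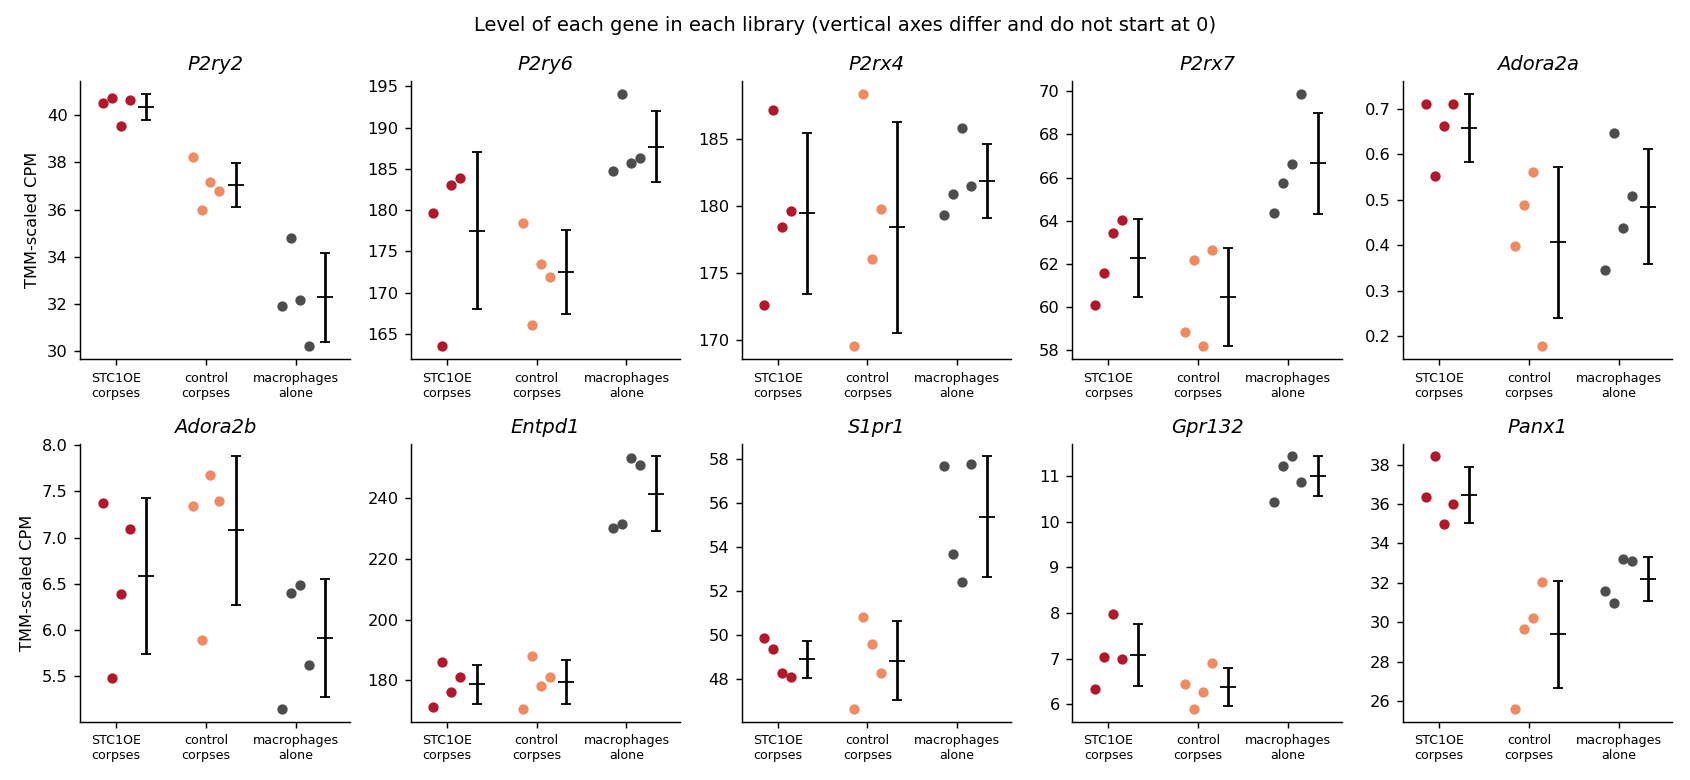
Levels of the 10 genes in each library, in CPM scaled by TMM, with 1 panel per gene and axes that do not start at 0 throughout; points are the 4 libraries of each group and bars show the mean ± 1 SD. Entpd1 and Gpr132 lie below macrophages alone in all 8 corpse libraries, P2ry2 lies above it in all 8, and Panx1 is highest with STC1OE corpses.

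Of the metabotropic nucleotide receptors, P2ry2 was higher in macrophages with corpses and P2ry6 was slightly lower. P2ry2 encodes the receptor for ATP and UTP that in mice draws monocytes to apoptotic cells. The gene (ENSMUSG00000032860.5) spans chr7:100996568-101012866 on the minus strand, and the promoter window shown above lies inside it, downstream of its 5′ end. It stood at 40.5, 40.7, 39.5 and 40.6 CPM with STC1OE corpses, at 38.2, 36.0, 37.2 and 36.8 CPM with control corpses and at 31.9, 34.8, 32.2 and 30.2 CPM in macrophages alone. The 3 groups did not overlap, with STC1OE corpses highest and macrophages alone lowest. Against macrophages alone the log2 difference was 0.32 with STC1OE corpses (SE 0.04, adjusted p = 5.19e-08 by edgeR) and 0.20 with control corpses (SE 0.04, adjusted p = 0.000113). With replicates 1 and 2 alone the difference with control corpses was 0.15 and not called (adjusted p = 0.0767). STC1OE corpses lay above control corpses by 0.12 (95% interval 0.04 to 0.20), which was not called (adjusted p = 0.0575). That value sat at the threshold. It was called by DESeq2 (adjusted p = 0.0409), with median-of-ratios factors (0.0378), in a fit of the corpse groups only (0.0498), and without replicate 2 (0.0401) or replicate 4 (0.0462) of macrophages alone.

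P2ry6 encodes the UDP receptor, known in rodent microglia for triggering phagocytosis. Its gene (ENSMUSG00000048779.5, chr7:100937630-100974649, minus strand) lies 21918 bases from P2ry2. P2ry6 stood at 179.7, 163.5, 183.0 and 183.9 CPM with STC1OE corpses, at 178.5, 166.1, 173.5 and 171.9 CPM with control corpses and at 184.7, 194.1, 185.7 and 186.3 CPM in macrophages alone. All 8 corpse libraries lay below the lowest library of macrophages alone, and library 2 was the lowest of each corpse group. The log2 difference from macrophages alone was -0.08 with STC1OE corpses (SE 0.03, adjusted p = 0.0405 by edgeR) and -0.12 with control corpses (SE 0.03, adjusted p = 0.00245). The call with STC1OE corpses was lost in 11 of the 12 fits that left out 1 library, all but that without replicate 1 of control corpses, with adjusted p-values of 0.0511 to 0.403. Without replicate 2 of the STC1OE group it was -0.03 (adjusted p = 0.403). With replicates 1 and 2 alone the call with control corpses was lost (-0.14, adjusted p = 0.0533). No difference was called between the corpse groups, with STC1OE corpses 0.04 above control corpses (95% interval -0.02 to 0.11, adjusted p = 0.515). In bulk RNA, fewer cells of a type and less RNA per cell cannot be told apart, here or for any gene that was lower.

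Of the ATP-gated channels, P2rx4 was not called in any comparison and P2rx7 was lower with both kinds of corpse. P2rx4 encodes a channel that sits largely in endolysosomes, and its gene (ENSMUSG00000029470.15) spans chr5:122707544-122729738 on the plus strand. P2rx4 stood at 172.6, 187.2, 178.4 and 179.6 CPM with STC1OE corpses, at 169.5, 188.4, 176.0 and 179.8 CPM with control corpses and at 179.3, 180.9, 185.8 and 181.5 CPM in macrophages alone. The groups overlapped, and in both corpse groups library 1 was lowest and library 2 highest. It was not called with STC1OE corpses (-0.02, 95% interval -0.08 to 0.04, adjusted p = 0.629 by edgeR) or with control corpses (-0.03, 95% interval -0.09 to 0.03, adjusted p = 0.489) against macrophages alone. Between STC1OE and control corpses the difference was 0.01 (95% interval -0.05 to 0.07).

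P2rx7 encodes the low-affinity ATP-gated channel whose opening lets potassium out and triggers the NLRP3 inflammasome. Its gene (ENSMUSG00000029468.17, chr5:122643911-122691432, plus strand) lies 16111 bases from P2rx4. P2rx7 stood at 60.1, 61.6, 63.4 and 64.0 CPM with STC1OE corpses, at 58.9, 62.2, 58.2 and 62.7 CPM with control corpses and at 64.4, 65.7, 66.6 and 69.9 CPM in macrophages alone. Every corpse library lay below every library of macrophages alone, the closest pair being 64.0 and 64.4 CPM. The log2 difference from macrophages alone was -0.10 with STC1OE corpses (SE 0.03, adjusted p = 0.0192 by edgeR) and -0.14 with control corpses (SE 0.03, adjusted p = 0.00105). The call with STC1OE corpses held in 14 of 21 alternatives. It was lost against a 1.2-fold change, by DESeq2 (adjusted p = 0.0709), in a fit of only those 2 groups (0.0507), with replicates 1 and 2 alone (0.189), without replicate 1 (-0.07, adjusted p = 0.118) or replicate 2 (-0.08, adjusted p = 0.0772) of that group, and without replicate 4 of macrophages alone (-0.08, adjusted p = 0.101). With replicates 1 and 2 alone the call with control corpses was also lost (-0.11, adjusted p = 0.149). STC1OE corpses lay 0.04 above control corpses, which was not called (adjusted p = 0.535).

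**Figure D2:**
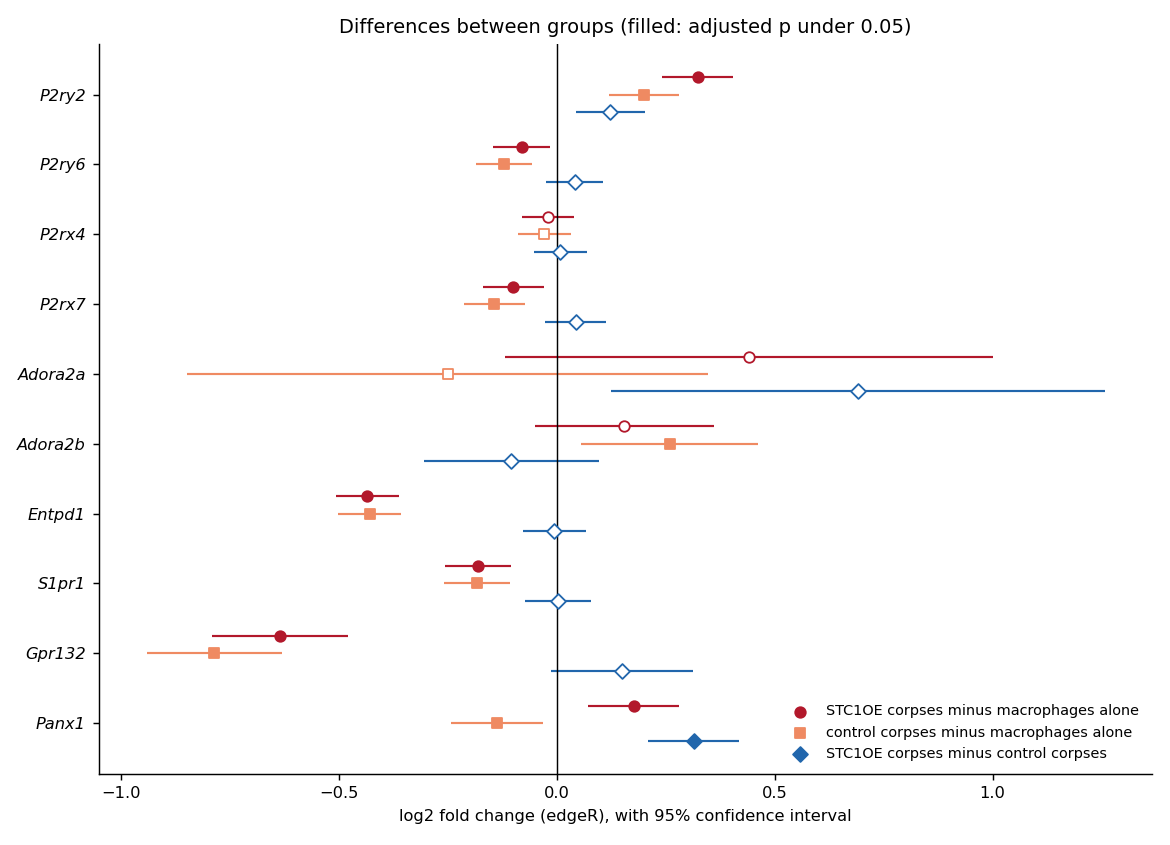
Log2 differences of the 10 genes with their 95% intervals in the 3 comparisons, on 1 axis of log2 fold change, where filled points are called at an adjusted p below 0.05. Gpr132 and Entpd1 have the most negative values against macrophages alone, and Panx1 is the one gene called between STC1OE and control corpses.

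Of the adenosine receptors, Adora2a was not called in any comparison and Adora2b was called higher with control corpses. Adora2a encodes the high-affinity receptor that raises cAMP, and its gene (ENSMUSG00000020178.6) spans chr10:75316877-75334784 on the plus strand. Adora2a stood at 0.710, 0.551, 0.662 and 0.709 CPM with STC1OE corpses, at 0.398, 0.489, 0.560 and 0.178 CPM with control corpses and at 0.345, 0.646, 0.439 and 0.509 CPM in macrophages alone. These values rest on 17 to 24 counts per library with STC1OE corpses, on 6 to 20 counts with control corpses and on 10 to 19 counts in macrophages alone. The log2 difference was 0.44 with STC1OE corpses (95% interval -0.12 to 1.00, adjusted p = 0.202 by edgeR) and -0.25 with control corpses (95% interval -0.85 to 0.35, adjusted p = 0.543) against macrophages alone. STC1OE corpses lay 0.69 above control corpses (95% interval 0.12 to 1.26, adjusted p = 0.152), which was not called, and at this depth the intervals span more than those of any other of the 10 genes.

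Adora2b encodes the low-affinity adenosine receptor (ENSMUSG00000018500.2, chr11:62248984-62266453, plus strand). It stood at 7.38, 5.48, 6.39 and 7.09 CPM with STC1OE corpses, at 7.34, 5.90, 7.68 and 7.40 CPM with control corpses and at 5.15, 6.40, 6.49 and 5.62 CPM in macrophages alone. All 3 groups overlapped, and library 2 was the lowest of each corpse group. It was called higher with control corpses (log2 difference 0.26, SE 0.10, adjusted p = 0.0364 by edgeR) and not with STC1OE corpses (0.16, 95% interval -0.05 to 0.36, adjusted p = 0.223) against macrophages alone. Between STC1OE and control corpses the difference was -0.10 (95% interval -0.31 to 0.10, adjusted p = 0.617), so that the call in 1 group does not show that the groups differ. The call with control corpses was lost without replicate 1 (0.24, adjusted p = 0.081), replicate 3 (0.23, adjusted p = 0.0964) or replicate 4 (0.24, adjusted p = 0.0895) of that group, and without replicate 1 (0.21, adjusted p = 0.107) or replicate 4 (0.23, adjusted p = 0.0994) of macrophages alone. Without replicate 2 of the STC1OE group the difference there was 0.24 and was called (adjusted p = 0.0478).

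Entpd1, the ectonucleotidase that trims extracellular ATP and ADP to AMP, fell with both kinds of corpse. Its gene (ENSMUSG00000048120.16) spans chr19:40612366-40741602 on the plus strand, with the upstream promoter window shown above at its start and the downstream one inside the gene. Entpd1 stood at 171.4, 186.2, 176.3 and 181.1 CPM with STC1OE corpses, at 170.6, 188.1, 178.3 and 181.0 CPM with control corpses and at 230.2, 231.4, 253.1 and 250.8 CPM in macrophages alone. The highest of the 8 corpse libraries, at 188.1 CPM, lay below the lowest library of macrophages alone, at 230.2 CPM, and the corpse groups overlapped almost wholly. The level was 0.740 of that in macrophages alone with STC1OE corpses (log2 difference -0.43, SE 0.03, adjusted p = 3.72e-10 by edgeR) and 0.743 of it with control corpses (-0.43, SE 0.03, adjusted p = 5.26e-10). Against a 1.2-fold change the adjusted p-values were 9.44e-05 with STC1OE corpses and 0.000162 with control corpses. Between STC1OE and control corpses the difference was -0.01, with a 95% interval of -0.08 to 0.07 (adjusted p = 0.956). Leaving out 1 library at a time gave -0.45 to -0.40 with either kind of corpse against macrophages alone.

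S1pr1 encodes the receptor for sphingosine 1-phosphate that steers leukocytes along gradients of that lipid. The gene (ENSMUSG00000045092.8) spans chr3:115710433-115715072 on the minus strand. It stood at 49.8, 49.4, 48.3 and 48.1 CPM with STC1OE corpses, at 46.6, 50.8, 49.6 and 48.3 CPM with control corpses and at 57.6, 53.7, 52.4 and 57.7 CPM in macrophages alone. The corpse groups overlapped and lay wholly below macrophages alone, whose lowest library was at 52.4 CPM. S1pr1 was lower with STC1OE corpses (log2 difference -0.18, SE 0.04, adjusted p = 0.000171 by edgeR) and with control corpses (-0.18, SE 0.04, adjusted p = 0.00014), and STC1OE corpses differed from control corpses by 0.00 (95% interval -0.07 to 0.08). Lymphocytes also carry this receptor. The 4 B cell markers summed to 1.73 to 2.17 CPM with STC1OE corpses, 2.04 to 2.49 CPM with control corpses and 2.31 to 2.66 CPM in macrophages alone, nearly all of it Cd79b and Cd79a, and their part in the result was not tested. The 4 markers of T and NK cells summed to at most 0.123 CPM with STC1OE corpses, 0.0841 CPM with control corpses and 0.138 CPM in macrophages alone.

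Gpr132 showed the largest called difference of the 10 genes. It encodes a receptor linked to lysophosphatidylcholine and oxidised fatty acids that in mice takes part in drawing macrophages to apoptotic cells. The gene (ENSMUSG00000021298.8) spans chr12:112850873-112868228 on the minus strand, and the promoter window shown above lies inside it, downstream of its 5′ end. Gpr132 stood at 6.33, 7.04, 7.98 and 7.00 CPM with STC1OE corpses, at 6.44, 5.90, 6.28 and 6.90 CPM with control corpses and at 10.4, 11.2, 11.4 and 10.9 CPM in macrophages alone. Every corpse library lay below every library of macrophages alone, the highest corpse library being at 7.98 CPM. The level was 0.644 of that in macrophages alone with STC1OE corpses (log2 difference -0.64, SE 0.08, adjusted p = 3.49e-08 by edgeR) and 0.580 of it with control corpses (-0.79, SE 0.08, adjusted p = 5.79e-10). Against a 1.2-fold change the adjusted p-values were 5.03e-05 with STC1OE corpses and 3.52e-07 with control corpses. STC1OE corpses lay 0.15 above control corpses (95% interval -0.01 to 0.31, adjusted p = 0.302), which was not called. Neutrophils also carry this receptor, and the 5 neutrophil markers listed summed to 3.81 to 4.51 CPM with STC1OE corpses, 3.32 to 4.71 CPM with control corpses and 13.1 to 14.3 CPM in macrophages alone. Of these markers S100a8, S100a9 and Ngp were called lower with both kinds of corpse, Ly6g had 0 counts in every library and Retnlg had 2 counts in all. Their part in the result was not tested.

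Panx1, the channel that releases ATP and UTP once caspases have cut it, was the one gene of the 10 called between the corpse groups. The gene (ENSMUSG00000031934.14) spans chr9:15002128-15045478 on the minus strand. Panx1 stood at 36.4, 38.4, 35.0 and 36.0 CPM with STC1OE corpses, at 25.6, 29.7, 30.2 and 32.04 CPM with control corpses and at 31.6, 31.0, 33.2 and 33.1 CPM in macrophages alone. All 4 libraries with STC1OE corpses lay above all 8 others, and control corpses overlapped macrophages alone, with replicate 1 of the control group lowest. Panx1 was 1.24-fold higher with STC1OE than with control corpses (log2 difference 0.31, SE 0.05, adjusted p = 0.000398 by edgeR). Leaving out 1 library at a time gave 0.25 to 0.36 and kept the call, with 0.25 (adjusted p = 0.000899) without replicate 1 of the control group. Replicates 1 and 2 alone gave 0.44 and replicates 3 and 4 alone 0.19, both called (adjusted p = 0.00669 for replicates 3 and 4). STC1OE corpses also lay 0.18 above macrophages alone (SE 0.05, adjusted p = 0.00573), but replicates 3 and 4 alone gave 0.10 (adjusted p = 0.11). With control corpses Panx1 was called lower than in macrophages alone (-0.14, SE 0.05, adjusted p = 0.0349). That call was lost in 10 of the 12 fits that left out 1 library, with adjusted p-values of 0.0508 to 0.205, and stood only without replicate 4 of control corpses or replicate 2 of macrophages alone; without replicate 1 of control corpses it was -0.07 (adjusted p = 0.205).

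Ranges that did not overlap were counted for the 10 genes as well. They lay apart for 7 of 10 with STC1OE corpses against macrophages alone, where 40.0% of all genes did. With control corpses against macrophages alone they lay apart for 6 of 10, against 37.2% of all genes. Between STC1OE and control corpses they lay apart for 2 of 10, P2ry2 and Panx1, against 10.7% of all genes.

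Levels of different genes were compared as CPM per kilobase of exon. P2ry6 was the most abundant, at 61.5 ± 3.3 CPM per kilobase with STC1OE corpses, 59.8 ± 1.8 for control corpses and 65.0 ± 1.5 in macrophages alone (SD, n = 4). Entpd1 and P2rx4 followed in every group, and Adora2a was lowest, at 0.215 ± 0.024 with STC1OE corpses, 0.133 ± 0.054 for control corpses and 0.158 ± 0.041 in macrophages alone. The order differed at 1 place. Adora2b lay above Gpr132 with STC1OE corpses (3.57 against 2.61 CPM per kilobase) and with control corpses (3.84 against 2.35), and below it in macrophages alone (3.21 against 4.05). The only neighbours in the order whose libraries overlapped were P2rx7 and P2ry2 with STC1OE corpses, at 10.4 and 10.3 CPM per kilobase.

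**Figure D3:**
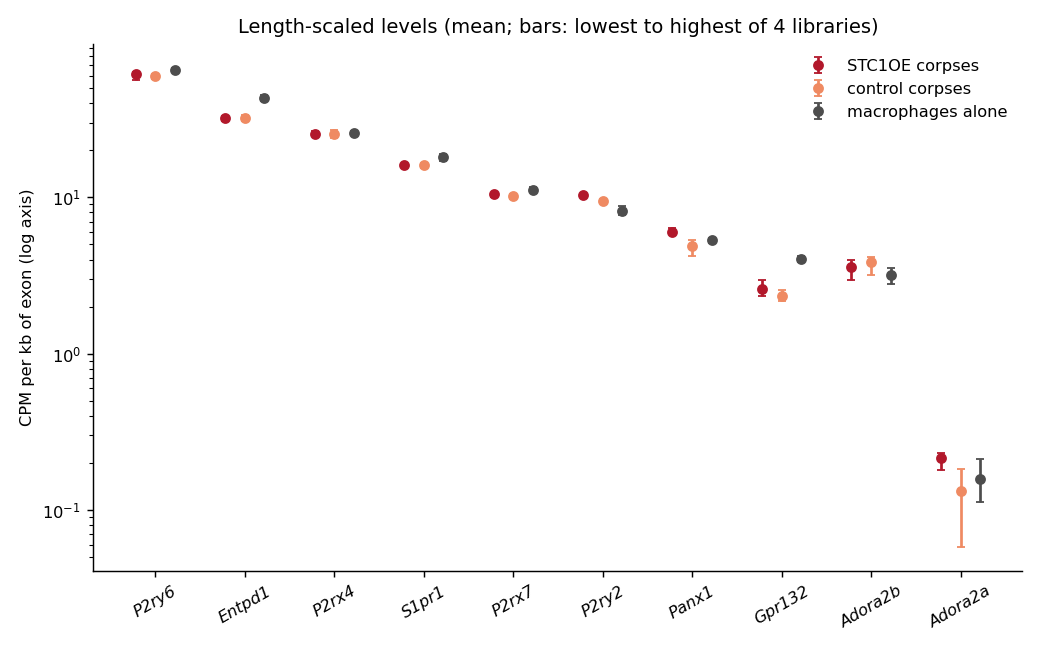
Mean level of the 10 genes in each group in CPM per kilobase of exon on a log axis, with bars from the lowest to the highest of 4 libraries. P2ry6 is highest and Adora2a lowest in all groups, and Gpr132 and Adora2b change places between macrophages with and without corpses.

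Across the 12 libraries Entpd1 and Gpr132 moved most alike among the 10, with a Pearson r of 0.925 on log2 CPM, and P2ry2 ran opposite to Entpd1, with an r of -0.894. These points share groups and libraries, so the values describe the group pattern. Of 10122 genes compared, those whose pattern was most like that of Entpd1 were Arhgap9 and Susd3 (r 0.995 each). For Gpr132 they were Klc1 (0.983) and Tnfaip8l2 (0.981), for P2ry2 Asna1 (0.973) and Cpne2 (0.967), and for Panx1 Ints3 (0.905) and Srxn1 (0.900).

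A wider list of 57 genes of the same systems was set beside the 10, and 40 of them passed the filter. With STC1OE corpses against macrophages alone 14 were higher and 11 lower, with control corpses 8 were higher and 10 lower, and between STC1OE and control corpses 2 were higher and 1 lower. Of all genes, 21.4% were higher and 22.4% lower with STC1OE corpses, 19.7% higher and 20.5% lower with control corpses, and 3.33% higher and 2.12% lower between STC1OE and control corpses. The counts of the wider list with control corpses are near those shares. Of the genes of adenosine uptake and metabolism, 8 of 8 genes were higher with STC1OE corpses and 4 of 8 with control corpses against macrophages alone, where 21.4% and 19.7% of all genes were higher. Borderline calls of Ada and Ak1 (adjusted p = 0.0465 and 0.0466) are among the 8, which became 6 by DESeq2, with upper-quartile factors or with no filter. Without replicate 3 or replicate 4 of macrophages alone 5 were called, and replicates 1 and 2 alone called 4 and replicates 3 and 4 alone 5. Slc29a2, an equilibrative nucleoside transporter, averaged 5.14 ± 0.31 CPM with STC1OE corpses, 5.04 ± 0.31 CPM with control corpses and 3.15 ± 0.42 CPM in macrophages alone (SD, n = 4), with log2 differences from macrophages alone of 0.71 for STC1OE corpses (edgeR adjusted p = 9.6e-07) and 0.68 for control corpses (adjusted p = 1.88e-06). Slc29a3, its endolysosomal relative, stood at 189.3, 192.4, 200.2 and 201.6 CPM with STC1OE corpses, at 163.9, 184.2, 181.3 and 177.6 CPM with control corpses and at 157.9, 157.8, 155.1 and 150.1 CPM in macrophages alone. The 3 groups did not overlap, and STC1OE corpses lay 0.15 above control corpses (SE 0.03, edgeR adjusted p = 0.00375). Adk, which phosphorylates adenosine, was higher by 0.22 with STC1OE and 0.26 with control corpses against macrophages alone. Slc28a2, a concentrative nucleoside transporter, was higher by 0.20 with STC1OE and 0.27 with control corpses. Ada, which deaminates adenosine, was not called with control corpses against macrophages alone (0.22, adjusted p = 0.118 by edgeR). It was called higher with STC1OE corpses (0.28, adjusted p = 0.0465). It lost the call in 6 of the 12 fits that left out 1 library, namely replicates 2 and 4 of STC1OE corpses, replicate 4 of control corpses and replicates 1, 3 and 4 of macrophages alone (adjusted p = 0.0506 to 0.107).

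Proton-sensing relatives of Gpr132 and lysolipid receptors and enzymes gave 0 higher and 5 lower of 8 tested in both comparisons with macrophages alone, where 22.4% of all genes were lower with STC1OE corpses and 20.5% with control corpses. The count with control corpses was 3 without replicate 2 or replicate 3 of that group and with replicates 1 and 2 alone, and the count with STC1OE corpses was 3 with replicates 3 and 4 alone. Gpr34, a lysophosphatidylserine receptor, stood at 2.04, 2.85, 2.45 and 2.25 CPM with STC1OE corpses, at 2.91, 2.81, 3.08 and 2.81 CPM with control corpses and at 7.98, 7.21, 8.51 and 8.39 CPM in macrophages alone. Its log2 difference from macrophages alone was -1.75 with STC1OE corpses (SE 0.10, edgeR adjusted p = 4.69e-15) and -1.47 with control corpses (SE 0.10, adjusted p = 1.53e-13). Lpar6, a lysophosphatidic acid receptor, fell to 16.7 ± 0.21 CPM with STC1OE corpses and 18.6 ± 1.5 CPM with control corpses, against 29.2 ± 1.4 CPM in macrophages alone (SD, n = 4). Lpar5, another receptor of that lipid, was lower by smaller amounts, with log2 differences of -0.21 with STC1OE and -0.30 with control corpses. Gpr65, a proton sensor, was the one gene of the wider list called lower with STC1OE than with control corpses (-0.17, adjusted p = 0.0311). That call was lost without replicates 1, 3 or 4 of STC1OE corpses or replicates 1 or 4 of control corpses (-0.21 to -0.14 over all 12 fits, adjusted p = 0.07 to 0.126 where lost). It was also lost by DESeq2 (0.052), in a fit of the corpse groups only (0.0535), with replicates 1 and 2 alone (0.545) and with replicates 3 and 4 alone (0.086), and the groups overlapped.

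The enzymes and receptors of sphingosine 1-phosphate moved both ways. Sgpl1, the lyase that breaks the lipid down, rose to 752 ± 14 CPM with STC1OE corpses and 717 ± 19 CPM with control corpses, against 590.3 ± 4.2 CPM in macrophages alone (log2 difference 0.35 with STC1OE and 0.28 with control corpses). Sgpp1, a phosphatase of the same lipid, fell by 0.36 with STC1OE and by 0.33 with control corpses on the log2 scale. S1pr2, a receptor for it, averaged 163.3 ± 1.0 CPM with STC1OE corpses, 147.1 ± 4.0 CPM with control corpses and 165.0 ± 2.9 CPM in macrophages alone (SD, n = 4). Control corpses stood apart from both other groups, and STC1OE corpses lay 0.15 above them (SE 0.03, edgeR adjusted p = 0.000376). Sphk2, a kinase that makes the lipid, was higher with STC1OE corpses than in macrophages alone (0.14, adjusted p = 0.00325). With control corpses it was 0.08 and not called (adjusted p = 0.11 by edgeR), and Sphk2 was not called between STC1OE and control corpses. Sphk1, the other such kinase, averaged 1.06 CPM with STC1OE corpses, 1.14 CPM with control corpses and 1.66 CPM in macrophages alone, and was called lower with STC1OE corpses (-0.65, adjusted p = 0.00501) and with control corpses (-0.55, adjusted p = 0.0146).

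Among further nucleotide genes, Enpp1, a pyrophosphatase that cleaves extracellular ATP to AMP, rose to 38.0 ± 1.2 CPM with STC1OE corpses and 37.3 ± 1.5 CPM with control corpses, against 27.6 ± 1.0 CPM in macrophages alone (log2 difference 0.46 with STC1OE corpses, edgeR adjusted p = 5.4e-11, and 0.43 with control corpses, adjusted p = 2.31e-10), while Entpd1 fell. Nt5e, which makes adenosine from AMP, stood below 1 CPM in each group's mean and was not called. Slc17a9, the vesicular nucleotide transporter, rose by 0.53 with STC1OE and 0.51 with control corpses, and Calhm2, a channel gene, fell by 0.34 with STC1OE and by 0.36 with control corpses. Lrrc8a, a subunit of volume-regulated anion channels, was higher with STC1OE corpses than in macrophages alone (0.27, adjusted p = 0.00388). With control corpses it was 0.03 and not called (adjusted p = 0.779 by edgeR). Lrrc8a was not called between STC1OE and control corpses. Its call with STC1OE corpses was lost with replicates 1 and 2 alone (edgeR adjusted p = 0.0536) and with replicates 3 and 4 alone (0.0676). P2ry13, a receptor for ADP, was higher with control corpses than in macrophages alone (0.43, adjusted p = 0.00456). With STC1OE corpses it was 0.21 and not called (adjusted p = 0.177 by edgeR). P2ry13 was not called between STC1OE and control corpses. Its call with control corpses was lost with replicates 1 and 2 alone (edgeR adjusted p = 0.0598) and with replicates 3 and 4 alone (0.0843). P2ry14, a receptor for UDP-sugars, was lower with STC1OE corpses than in macrophages alone (-0.31, adjusted p = 0.00485). With control corpses it was -0.19 and not called (adjusted p = 0.0746), and between STC1OE and control corpses -0.11 (adjusted p = 0.523). P2rx5, an ATP-gated channel gene, averaged 1.27 CPM with STC1OE corpses, 1.58 CPM with control corpses and 1.99 CPM in macrophages alone. It was lower with STC1OE corpses than in macrophages alone (-0.64, edgeR adjusted p = 0.00117). With control corpses the difference was -0.34 and not called (edgeR adjusted p = 0.0738, and 0.049 without replicate 2 of control corpses). Between STC1OE and control corpses it was -0.30 and not called (edgeR adjusted p = 0.3). Adora3 averaged 0.850 CPM in both corpse groups and 0.998 CPM in macrophages alone. Of the other find-me receptors, Cmklr1, the chemerin receptor, stood at 20.8 CPM with STC1OE corpses, 20.3 CPM with control corpses and 21.4 CPM in macrophages alone and was not called. Cx3cr1, the fractalkine receptor, had log2 differences from macrophages alone of -1.44 with STC1OE and -1.35 with control corpses. Fpr1, also on this list, averaged 0.345 CPM with STC1OE corpses, 0.270 CPM with control corpses and 0.172 CPM in macrophages alone. Against macrophages alone it was called higher with STC1OE corpses and not with control corpses (0.63, edgeR adjusted p = 0.209). It had 7, 11, 11 and 15 counts with STC1OE corpses and 4, 6, 5 and 7 counts in macrophages alone. Fibroblast markers, a cell type that marrow cultures can hold, summed to 13.9 to 15.1 CPM with STC1OE corpses, 12.4 to 16.9 CPM with control corpses and 17.8 to 23.8 CPM in macrophages alone. Platelet and megakaryocyte markers, mostly Pf4, summed to 102.9 to 113.6 CPM with STC1OE corpses, 110.8 to 125.7 CPM with control corpses and 130.8 to 138.4 CPM in macrophages alone. In macrophages alone Pf4 averaged 133.2 CPM, against 1.01 for Ppbp, 0.945 for Itga2b and 0.188 for Gp9, so this sum follows Pf4 and is no measure of platelet content. With STC1OE corpses Ppbp averaged 0.785, Itga2b 0.329 and Gp9 0.063 CPM, and with control corpses 0.973, 0.259 and 0.055 CPM. Itga2b was called lower with control corpses (-1.89, edgeR adjusted p = 1.87e-06) and Ppbp was not called there. Gp9 had 41 counts in all. The part of both marker sets in the genes that were lower was not tested.

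**Figure D4:**
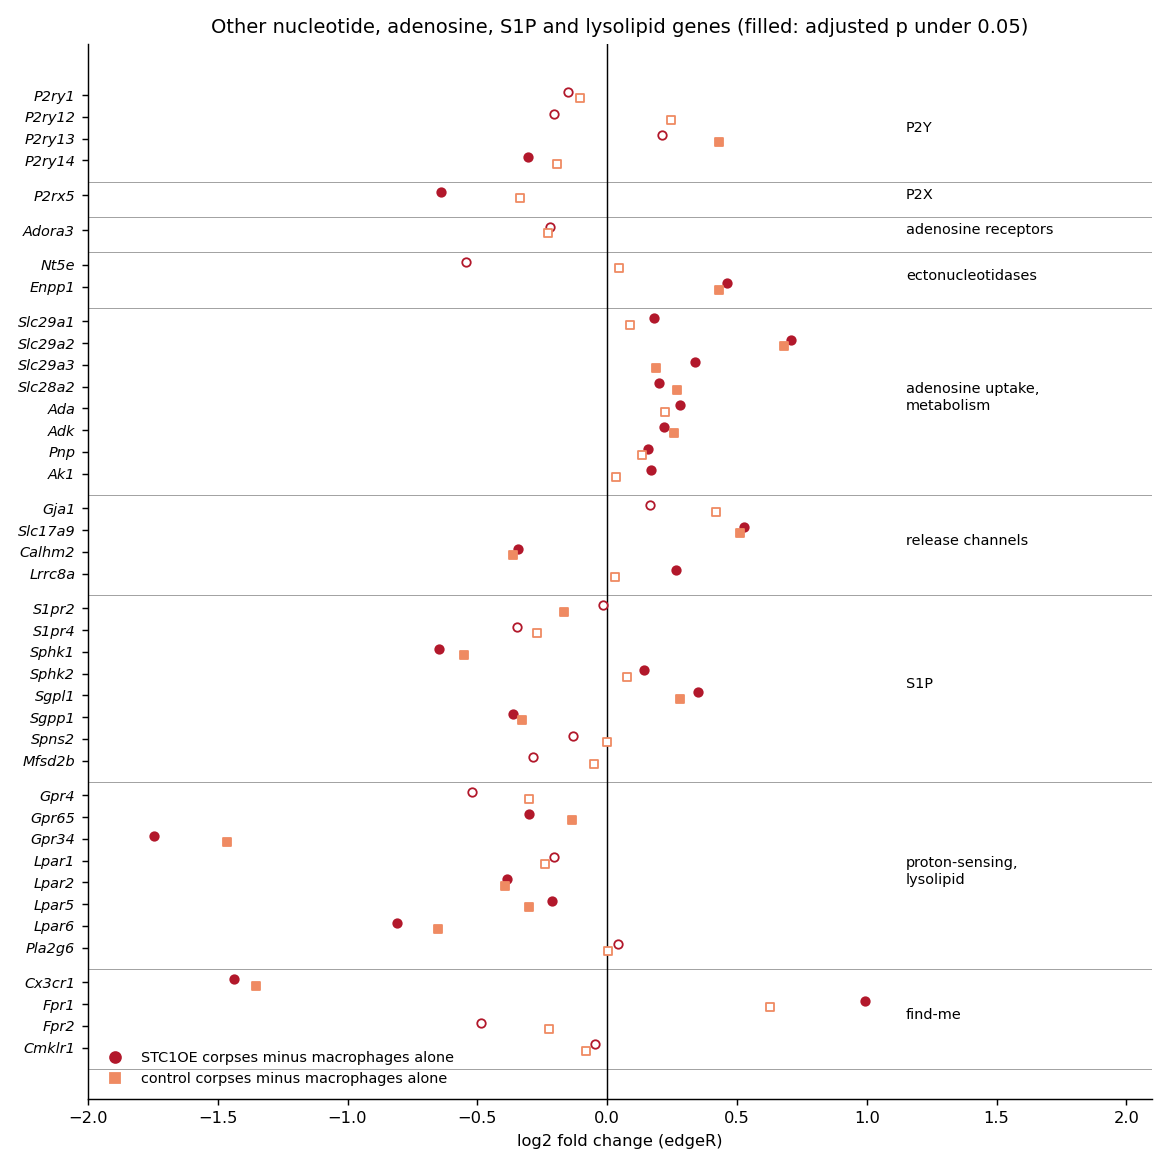
Log2 differences from macrophages alone of the 40 tested genes of the wider list, with STC1OE corpses (circles) and with control corpses (squares), grouped by role, where filled points are called at an adjusted p below 0.05. All 8 genes of adenosine uptake and metabolism lie right of 0, the called proton and lysolipid receptors lie left of it, and Gpr34 has the lowest values.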

How the data were processed

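The deposited values are raw counts of reads per gene in 12 files, made by the authors; the submitters' processing notes name mm10 and GRCm38 as builds and HISAT2, HTSeq and DESeq2 as tools, with no versions. Strand use in counting is not stated there. Between 41.0% and 46.6% of reads were on lines that name no gene, and these stayed out of library sizes and tests. In replicates 1 to 4 the share was 43.7%, 43.4%, 46.4% and 46.6% with STC1OE corpses. It was 41.6%, 41.4%, 41.5% and 41.3% with control corpses and 45.1%, 45.5%, 41.4% and 41.0% in macrophages alone. The share thus differed between groups and, in 2 of the 3 groups, between replicates 1 and 2 and replicates 3 and 4. Its part in the results was not tested. Coordinates and exon lengths came from GENCODE M21 (GRCm38). Symbols came from a separate list of gene names, which gave a symbol to 54723 of 55604 genes. No exon overlapped another counted gene, save 119 bases of P2rx7 with Mir8115 (0 counts). Promoter windows are RefSeq's on GRCm38.p6.

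The tests used edgeR 4.0.16 in R 4.3.3, after filterByExpr (minimum count 10, minimum total 15) and TMM, as a robust quasi-likelihood fit of group means on all 12 libraries, with two-sided p-values adjusted by Benjamini-Hochberg over 16406 genes and called below 0.05. The common biological coefficient of variation was 4.53%. Steps were tested on simulated data, with changes given to 200 genes drawn from all 16406. Over the 3 comparisons, 34.3% to 47.8% of 1.2-fold changes were called, 65.7% of 1.5-fold and 78.8% to 90.9% of 2-fold changes. False calls numbered 6 to 8. A change near 1.2-fold can thus go uncalled. DESeq2 1.42.0 and the other alternatives are given in the closing section. From the wider list, up to 3 called genes per role and comparison with a mean of at least 2 CPM were named by size of change. Where none qualified, the most abundant was named. Nt5e, Sphk1, Fpr1 and the call of P2rx5 (below that level) were chosen after their values were seen, as was the set of 5 promoter windows. The members, lists and alternatives were chosen with earlier results of these data known. A gene of the wider list is not reported here and is in none of its counts.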

Additional observations from a re-analysis of the deposited data

Results flagged for a closer look

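In macrophages alone, P2ry6 stood at 194 CPM in replicate 2, against 185 to 186 CPM in the other 3 libraries, a gap of 0.832 of the group's whole range. That gap is just past the 95% critical value of Dixon's test for 4 values. Chance passes it in about 1 in 20 groups, and 30 groups of the 10 genes were examined.

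Panx1 lay above macrophages alone with STC1OE corpses and below it with control corpses. The call with control corpses was lost in 10 of the 12 fits that left out 1 library. With replicates 3 and 4 alone, the difference with STC1OE corpses was not called. The difference between the corpse groups was itself called by edgeR, at 0.314 on the log2 scale. Markers of melanocytes differed between the same groups, at 3.21 to 4.64 CPM with STC1OE corpses and 9.67 to 12.9 CPM with control corpses, and their part was not tested.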

How the results depend on the processing

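Over 21 alternatives, 548 of the values of the 10 genes kept their direction and their side of the threshold, 58 lost a call, 7 gained one and 16 changed sign. Gpr132 and Entpd1 kept their calls against macrophages alone in all 21. Against a 1.2-fold change, genes called numbered 2119 with STC1OE and 1687 with control corpses against macrophages alone and 4 between STC1OE and control corpses. Of the 10 genes it called 2 with STC1OE corpses, 2 with control corpses and 0 between them, and of the wider list 11 with STC1OE corpses, 7 with control corpses and 0 between them. Replicates 1 and 2 alone called 4650 genes with STC1OE corpses, 4090 with control corpses and 33 between them. There, 3 of the 10 were called with control corpses, those of P2ry2, P2ry6, P2rx7, Adora2b and Panx1 being lost, and 16 and 0 of the wider list with STC1OE corpses against macrophages alone and against control corpses. Replicates 3 and 4 alone called 1925 genes between STC1OE and control corpses. Of the 10 genes, 2 were then called, with P2ry6 added to Panx1 (0.09, adjusted p = 0.0266 by edgeR). P2ry2 made the count 2 with median-of-ratios factors, by DESeq2 and in a fit of the corpse groups only. Leaving out 1 library gave 474 to 1200 genes and 1 to 2 of the 10 called between STC1OE and control corpses.

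The differences that changed sign were uncalled, and most were near 0; Adora3 with control corpses against macrophages alone was -0.23 and P2ry14 between STC1OE and control corpses -0.11. Between STC1OE and control corpses Entpd1 was 0.0030 with median-of-ratios factors and 0.0029 by DESeq2. With upper-quartile factors P2rx4 was -0.002343, S1pr1 -0.007927 and Adora3 -0.005256. Replicates 1 and 2 alone gave -0.0046 for P2ry6 and -0.01034 for Enpp1. Replicates 3 and 4 alone gave -0.022 for S1pr1, 0.015 for P2ry14 and -0.26 for Adora3, and 0.20 for Adora3 with control corpses against macrophages alone. Leaving out 1 library gave -0.029 to 0.017 for Entpd1, -0.015 to 0.035 for P2rx4, -0.019 to 0.022 for S1pr1, -0.13 to 0.12 for Adora3 and -0.011 to 0.076 for Cmklr1, and -0.030 to 0.0092 for P2rx4 with STC1OE corpses against macrophages alone. The cause was not tested.

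The labels do not say whether equal replicate numbers share an experiment. Deviations of same-numbered libraries correlated at -0.0434 to 0.0912 over all genes tested. Every gene weighs the same in these correlations, so a shared experiment that moves some genes could be missed, and pairing was not settled. With the replicate block, 7 of the 10 and 7300 of all genes were called with STC1OE corpses, 8 and 6712 with control corpses, and 1 and 1089 between STC1OE and control corpses. The block changed no call of the 10. Of the genes of adenosine uptake and metabolism, 6 of 8 were then called higher with STC1OE corpses. Ada was among those that lost the call (adjusted p = 0.0576 by edgeR). Depth limits Adora2a, with 6 to 24 counts per library.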
